A study of Homo sapiens with 6 samples.

Results

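The regions described here are the stretches of matrix-attached DNA that lay deep inside very long genes. They were measured by MAR-seq, which sequences the DNA that stays with the nuclear matrix, the insoluble framework of a nucleus, after detergent extraction and digestion with restriction enzymes. A region was a member when its centre lay on an autosome, within the body of a protein-coding gene of 500 kb or longer, and more than 1 kb from every boundary of a protein-coding gene. This rule used positions only, and it took 7699 of the 115751 regions in 3 lists. There were 2488 members in the hPSC list, 2726 in the shLUC list and 2485 in the shHNRNPU list.

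All 6 samples were H1 cells, an established line of human pluripotent stem cells, kept in mTeSR1 medium on Matrigel. The hPSC group was untreated. The shLUC group carried a short hairpin RNA against LUC, used as the control hairpin, and the shHNRNPU group carried one against HNRNPU, the gene of an abundant nuclear scaffold protein that contacts both RNA and matrix-attached DNA. Each group had 2 samples but only 1 list, so none of the values has an error between samples, and nothing labels the samples as separate cultures. Intervals are exact 95% Poisson or binomial intervals and cover counting error only. Those of a ratio between lists treat the lists as separate counts, although many regions were the same in both hairpin lists. Each region was 400 bp wide and carried no height, read depth is unknown, and the lists hold no measure by which the knockdown could be checked.

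Very long genes are mostly intron. Many of them code for proteins of the synapse, and several lie over common fragile sites, where replication finishes late. DNA held at the matrix has long been described as the foot of chromatin loops.

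Long genes often hold further transcription start sites far inside the gene body. Among the features compared, members were densest around those internal starts, as described further on. Promoters of such starts (250 bases before to 50 bases after a start) are shown here for the 3 longest genes that had one internal promoter of their own with a region in all lists and another with a region in none, with the promoter from ANK3 that had the fewest CpG dinucleotides among those covered in all lists. The sequences are those of RefSeq on GRCh38.p14, read 5′ to 3′ along the gene, with each CpG dinucleotide in capitals. RBFOX1 codes for a neuronal splicing regulator, ROBO2 for a receptor of the guidance cue Slit, PDE4D for an enzyme that breaks down cyclic AMP and ANK3 for ankyrin-G, which anchors membrane proteins to the cytoskeleton.

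RBFOX1 promoter with a region in all lists, chr16:6019453-6019752, plus strand: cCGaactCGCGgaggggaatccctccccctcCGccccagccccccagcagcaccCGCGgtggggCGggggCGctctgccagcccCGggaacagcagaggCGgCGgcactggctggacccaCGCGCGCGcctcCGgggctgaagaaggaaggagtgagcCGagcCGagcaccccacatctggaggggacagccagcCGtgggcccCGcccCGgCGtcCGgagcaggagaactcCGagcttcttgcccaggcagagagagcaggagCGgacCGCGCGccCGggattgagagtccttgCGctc
RBFOX1 promoter with a region in no list, chr16:6018774-6019073, plus strand: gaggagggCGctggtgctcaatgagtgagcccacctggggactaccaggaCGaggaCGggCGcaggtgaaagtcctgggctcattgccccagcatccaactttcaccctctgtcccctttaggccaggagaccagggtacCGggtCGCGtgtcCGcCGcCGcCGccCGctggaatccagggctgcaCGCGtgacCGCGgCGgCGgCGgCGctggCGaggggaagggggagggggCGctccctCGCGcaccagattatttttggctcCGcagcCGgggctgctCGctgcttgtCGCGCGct
ROBO2 promoter with a region in all lists, chr3:77039849-77040148, plus strand: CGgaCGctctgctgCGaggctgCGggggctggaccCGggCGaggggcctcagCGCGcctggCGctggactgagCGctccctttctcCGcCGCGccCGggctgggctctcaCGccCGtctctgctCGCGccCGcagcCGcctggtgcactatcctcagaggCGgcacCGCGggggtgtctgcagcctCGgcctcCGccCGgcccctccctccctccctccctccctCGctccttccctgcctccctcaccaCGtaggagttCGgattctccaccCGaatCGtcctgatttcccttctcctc
ROBO2 promoter with a region in no list, chr3:76310630-76310929, plus strand: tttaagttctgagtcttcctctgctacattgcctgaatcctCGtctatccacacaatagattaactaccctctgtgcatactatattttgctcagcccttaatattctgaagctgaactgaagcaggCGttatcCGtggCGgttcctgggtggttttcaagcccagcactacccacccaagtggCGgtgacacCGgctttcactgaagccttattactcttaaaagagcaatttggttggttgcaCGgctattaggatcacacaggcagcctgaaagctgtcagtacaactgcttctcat
PDE4D promoter with a region in all lists, chr5:59039427-59039726, minus strand: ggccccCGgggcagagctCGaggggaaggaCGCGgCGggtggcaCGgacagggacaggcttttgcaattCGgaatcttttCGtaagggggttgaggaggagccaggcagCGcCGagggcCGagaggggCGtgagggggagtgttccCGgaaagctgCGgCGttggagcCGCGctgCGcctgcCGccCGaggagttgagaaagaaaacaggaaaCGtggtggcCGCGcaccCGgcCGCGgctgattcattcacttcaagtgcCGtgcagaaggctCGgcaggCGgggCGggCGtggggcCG
PDE4D promoter with a region in no list, chr5:60496237-60496536, minus strand: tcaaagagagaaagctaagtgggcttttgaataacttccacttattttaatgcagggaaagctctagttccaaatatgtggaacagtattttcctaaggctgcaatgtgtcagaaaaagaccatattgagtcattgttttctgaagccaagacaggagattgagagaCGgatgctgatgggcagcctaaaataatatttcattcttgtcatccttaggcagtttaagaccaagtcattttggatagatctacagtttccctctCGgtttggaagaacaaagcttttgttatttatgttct
ANK3 promoter with a region in all lists, chr10:60572907-60573206, minus strand: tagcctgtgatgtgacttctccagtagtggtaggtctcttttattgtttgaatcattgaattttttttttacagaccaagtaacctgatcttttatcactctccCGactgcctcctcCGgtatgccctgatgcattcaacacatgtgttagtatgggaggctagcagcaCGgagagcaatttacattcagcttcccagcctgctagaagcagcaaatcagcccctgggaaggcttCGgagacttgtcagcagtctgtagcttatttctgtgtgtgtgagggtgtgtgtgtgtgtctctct

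The covered promoters of RBFOX1, ROBO2 and PDE4D held 30, 31 and 32 CpG and had a GC content of 73.7%, 72.3% and 68.3%. The uncovered promoters of ROBO2 and PDE4D were poorer, with 7 and 2 CpG. The uncovered RBFOX1 promoter was not, since it held 30 CpG at a GC content of 69.3%. It lay just upstream of the covered one. The ANK3 promoter was covered in all lists with 4 CpG and a GC content of 46.3%. The hairpin lists held the same region at each of these 4 covered promoters, and the hPSC region had other coordinates. At RBFOX1 the region was centred 11 bp from the start in both hairpin lists and 152 bp from it in the hPSC list. At ANK3 these distances were 16 and 206 bp. The hPSC region was the nearer at ROBO2 (204 bp in the hairpin lists, 149 bp in hPSC) and at PDE4D (186 and 51 bp).

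The 303 autosomal genes of 500 kb or longer had a median length of 721 kb, and they left 249.8 Mb of eligible sequence, 8.69% of the autosomal span. Regions were sparse there. The members made up 6.29% of the autosomal hPSC regions (95% interval 6.06 to 6.54), 7.01% of the shLUC regions (6.76 to 7.27) and 6.94% of the shHNRNPU regions (6.68 to 7.21). All 3 shares lay below the share of sequence.

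The density of members was 9.96 per Mb in the hPSC list (9.57 to 10.4), 10.9 in the shLUC list (10.5 to 11.3) and 9.95 in the shHNRNPU list (9.56 to 10.3). In genes of 200 to 500 kb, counted by the same margins, it was 13.7, 14.1 and 12.9 per Mb. The ratio of the long genes to these was 0.729 in the hPSC list (0.693 to 0.766), 0.771 in the shLUC list (0.735 to 0.809) and 0.773 in the shHNRNPU list (0.734 to 0.813). Long genes thus held fewer regions per Mb than genes of 200 to 500 kb in each list, and every interval lay below 1. Genes under 200 kb were denser still, with 15.0, 17.8 and 16.0 per Mb. Sequence outside protein-coding genes came closest to the long genes, with 9.86, 9.73 and 8.82 per Mb in the order hPSC, shLUC and shHNRNPU.

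**Figure D1:**
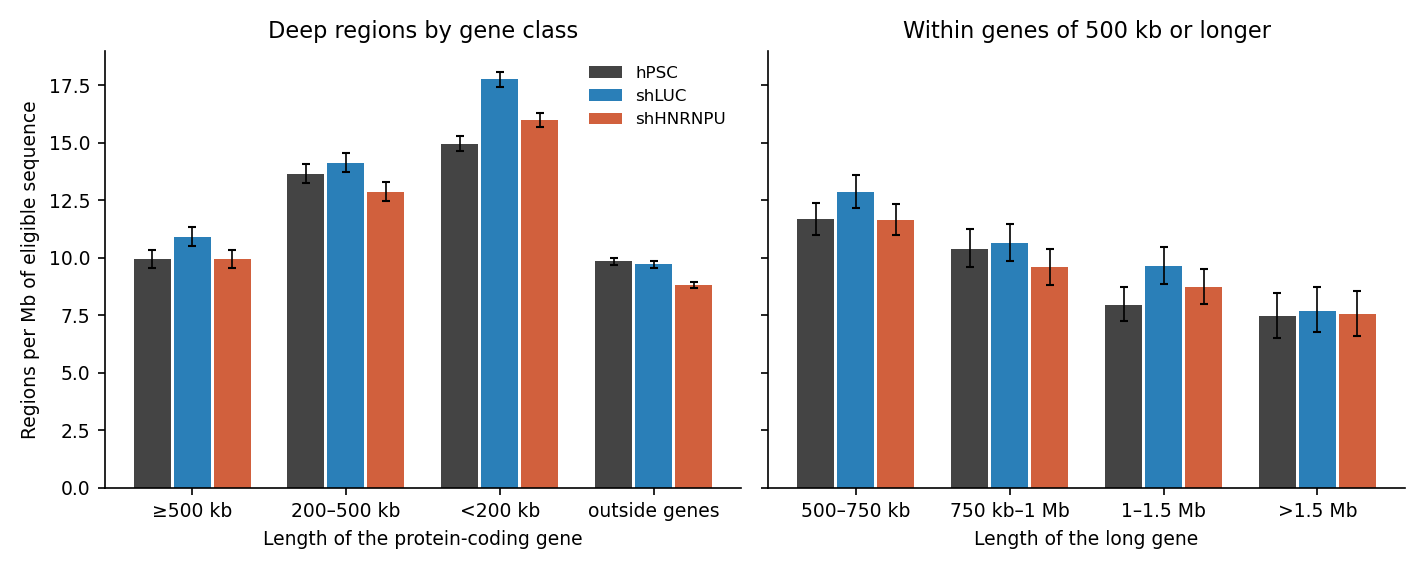
Regions per Mb of eligible sequence in each list, by the length of the protein-coding gene (left) and within genes of 500 kb or longer (right), with exact 95% Poisson intervals as error bars. In every list the longest class, over 1.5 Mb, lay lowest, between 7.45 and 7.70 per Mb.

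The lower density was seen on nearly all chromosomes. Of the 21 autosomes with a gene of 500 kb or longer, density was lower in long genes than in genes of 200 to 500 kb on 20 in the hPSC list and on 21 in each hairpin list. The exception in the hPSC list was chromosome 22. Density also went down with length among the long genes themselves. Genes of 500 to 750 kb held 11.7, 12.9 and 11.6 members per Mb in the order hPSC, shLUC and shHNRNPU, and genes over 1.5 Mb held 7.45, 7.70 and 7.55. Across the 303 genes, Spearman's correlation of length and density was -0.207, -0.180 and -0.186 in the same order. This is a weak relation, given as a description, and neighbouring genes share base composition. At the edge of the rule, 46 genes of 500 to 550 kb held 10.6, 12.6 and 10.9 per Mb, and 71 genes of 450 to 500 kb held 12.3, 13.3 and 11.9.

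Single genes spread widely around these means. The shLUC list had a member in all 303 genes, the shHNRNPU list in 301 and the hPSC list in 299. The median gene held 9.39 members per Mb in the hPSC list, 10.3 in the shLUC list and 9.26 in the shHNRNPU list, and the highest gene held 28.3, 35.7 and 31.3. Genes without a member were FOXP2, NCAM2, RELN and ZNF804B in the hPSC list and C12orf42 and KHDRBS2 in the shHNRNPU list. A count of 0 allows up to 3 by counting error. No gene was empty in all lists.

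The 5 longest genes held members over much of their bodies, with long free stretches in single lists. RBFOX1 (chromosome 16, 2474 kb) had 22 members in the hPSC list and 24 in each hairpin list. CNTNAP2, a neurexin-like adhesion protein (chromosome 7, 2304 kb), had 21 in the hPSC list and 16 in each hairpin list. These genes differed in how full they were, since PTPRD, a receptor phosphatase of the synapse, had 13, 12 and 12 members in 2299 kb. DLG2, a scaffold of the postsynaptic density, had 17 in the hPSC list, 20 in the shLUC list and 23 in the shHNRNPU list. CSMD1, a membrane protein that inhibits complement, had 12, 11 and 9. Its shHNRNPU members left the stretch from 280 to 976 kb from the lower-coordinate end free. The shLUC members left nearly the same stretch free, from 291 to 976 kb, whereas hPSC members lay within it, as at 535 and 611 kb. Of the 24 shLUC members in RBFOX1, 19 overlapped a shHNRNPU region and 3 an hPSC region. In DLG2 these were 16 and 1 of 20.

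**Figure D2:**
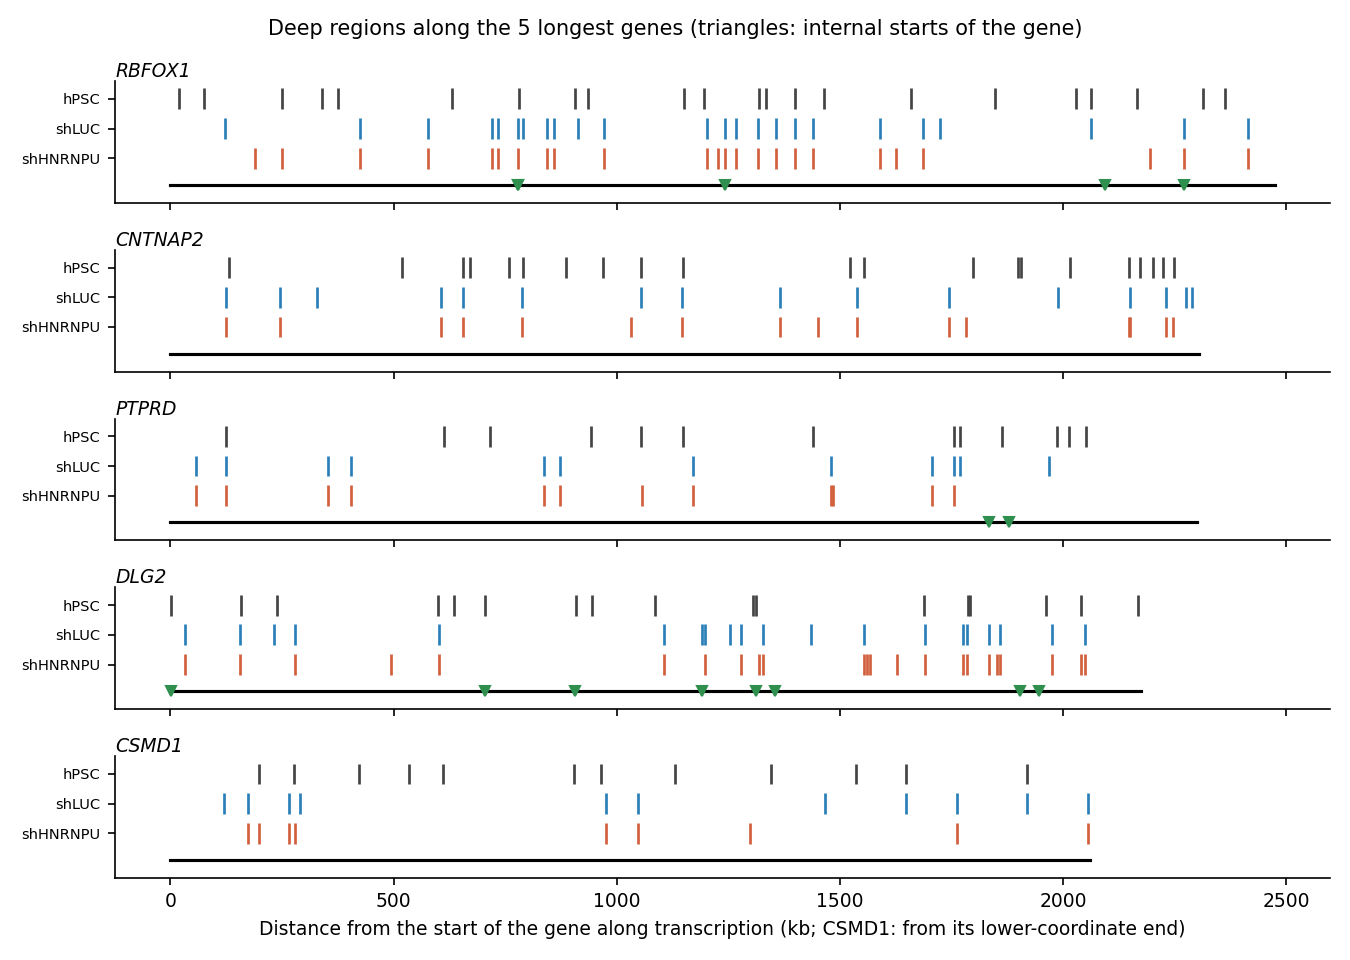
Position of each member along the 5 longest genes, as distance from the start of the gene in kb, with 1 row of marks per list and triangles at internal starts of the gene itself. No strand or internal starts were used for CSMD1, whose distances run from the lower-coordinate end. The shLUC and shHNRNPU rows line up at most marks, and the hPSC row does so at few.

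The densest genes by the mean of the lists were GSE1, PTPRN2, CACNA1C, PTPRG and AGAP1. GSE1, a subunit of a transcriptional co-repressor complex, had 13 members in the hPSC list, 18 in the shLUC list and 15 in the shHNRNPU list within 507 kb. PTPRN2, a phosphatase-like protein of secretory vesicles, had the most members of any long gene, with 24, 28 and 26 in 1049 kb. CACNA1C, the pore of an L-type calcium channel, had 19, 19 and 15. PTPRG, a receptor phosphatase, had 10, 19 and 23, so that its place among the densest came from the hairpin lists. AGAP1, which switches off Arf GTPases, had 18, 16 and 11.

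The sparsest genes were FOXP2, ANXA8, SYNE1, KHDRBS2 and LRP1B. FOXP2, a transcription factor of brain development, had no member in the hPSC list and 1 in each hairpin list over 607 kb. LRP1B, a large endocytic receptor, had 4, 8 and 6 over 1900 kb, and the longest stretch free of any member there was 415 kb. SYNE1, which codes for a protein of the nuclear envelope, had 2, 1 and 1. KHDRBS2, an RNA-binding protein, had 3 in the hPSC list, 4 in the shLUC list and none in the shHNRNPU list. ANXA8, an annexin, had 1 in each list. Longer free stretches than that of LRP1B lay in ANXA8 (438 kb), PCDH15 (458 kb) and NEGR1 (461 kb), the last of these chosen after the values were seen.

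The order of genes by density was similar in the hairpin lists. Spearman's correlation over the 303 genes was 0.858 between shLUC and shHNRNPU, 0.540 between hPSC and shLUC and 0.559 between hPSC and shHNRNPU. These are descriptions, and the genes share their sequence between lists. The likeness of the hairpin lists cannot be told apart from the way the lists were made.

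Neighbouring members of a gene stood far apart. The median distance between centres was 52.6 kb in the hPSC list (49.6 to 55.5, 2194 gaps), 54.5 kb in the shLUC list (51.2 to 57.3, 2430 gaps) and 58.5 kb in the shHNRNPU list (54.7 to 61.7, 2188 gaps). In genes of 200 to 500 kb the medians were 36.1, 35.0 and 38.1 kb. The gaps varied widely, with quartiles of 23.9 and 108 kb in the hPSC list and a coefficient of variation of 1.13, 1.10 and 1.10. Gaps in genes of 200 to 500 kb, which cannot grow as long, had coefficients of 0.955, 0.968 and 0.962.

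Close neighbours were scarce. Centres stood within 5 kb of each other in 1.96% of the gaps in the hPSC list, 2.47% in the shLUC list and 2.06% in the shHNRNPU list. Placement at an even rate with the same mean gap would give 5.78%, 5.98% and 5.53%. Genes of 200 to 500 kb showed the same, with 2.80%, 3.26% and 2.89% where an even rate would give 9.14%, 9.34% and 8.71%. How neighbouring regions were merged or thinned when the lists were made was not given in the sources used here, and its part in this was not tested.

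Density was also taken by position along the gene. Strand could be taken for 251 of the 303 genes, and these were cut into 10 equal bins along transcription. The first bin, relative to the 8 middle bins, had a density ratio of 1.04 in the hPSC list (0.899 to 1.21), 0.941 in the shLUC list (0.812 to 1.09) and 1.04 in the shHNRNPU list (0.893 to 1.20). The last bin lay above the middle in the hairpin lists, with ratios of 1.17 (1.02 to 1.33) for shLUC and 1.22 (1.06 to 1.40) for shHNRNPU. In the hPSC list the ratio was 1.12 (0.965 to 1.28), whose interval includes 1.

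Among the features compared, members were densest around internal starts. The promoter table gave 894 starts within eligible sequence, on all autosomes but 8, which was not used for them. Of these, 363 belonged to the long gene itself, in 157 genes, 521 to long non-coding RNA genes and 10 to other protein-coding genes. Sequence within 1 kb of an internal start made up 0.675% of the eligible sequence, and it held 4.45% of the members of the hPSC list (3.66 to 5.37, 105 of 2357), 3.34% of the shLUC list (2.68 to 4.10, 86 of 2578) and 3.24% of the shHNRNPU list (2.56 to 4.04, 76 of 2344). Most members therefore lay elsewhere. Genes of 200 to 500 kb showed the same, with 0.919% of sequence and 5.91%, 3.70% and 4.15% of regions.

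The density within 500 bp of an internal start was 104 members per Mb in the hPSC list (82.9 to 128), 85.5 in the shLUC list (66.6 to 108) and 78.1 in the shHNRNPU list (60.2 to 99.8). It was 26.0, 20.8 and 15.6 per Mb between 500 bp and 1 kb, and 8.62, 9.65 and 8.62 between 5 and 10 kb.

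**Figure D3:**
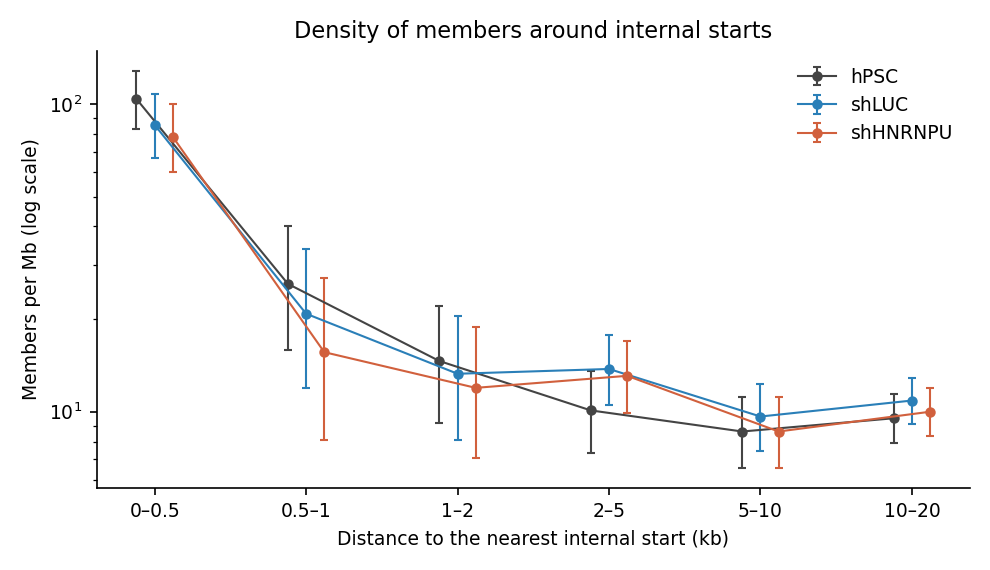
Members per Mb (log scale) by distance from the nearest internal start in kb, for each list, with exact 95% Poisson intervals. The bin nearest the start stands at 78.1 to 104 per Mb and the bins beyond 5 kb at 8.62 to 10.9.

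The starts of the long genes themselves were covered more often than those of non-coding RNAs. A region centre lay within 1 kb of 26.2% of the 363 own starts in the hPSC list (21.7 to 31.0), 23.4% in the shLUC list (19.2 to 28.1) and 21.2% in the shHNRNPU list (17.1 to 25.8). For the 521 starts of long non-coding RNA genes these shares were 7.87%, 6.53% and 5.37%. Neighbouring starts can share a region, since 95 own starts were covered in the hPSC list by 73 members, so these intervals are too narrow. In all, 47 internal starts had a region within 1 kb in each of the lists. Bodies of long non-coding RNA genes were not favoured, since they made up 7.05% of the eligible sequence and held 7.84%, 7.12% and 6.84% of the members. Bodies of shorter protein-coding genes made up 1.24% and held 1.49%, 1.28% and 1.33%. Bodies of pseudogenes made up 0.319% and held 0.643% (0.368 to 1.04), 0.477% (0.254 to 0.814) and 0.684% (0.399 to 1.09). These shares rest on 16, 13 and 17 members.

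Covered internal promoters were rich in CpG, like the printed promoters of RBFOX1, ROBO2 and PDE4D. Of the 894 promoters, 128 overlapped a region of any list, and their median GC content was 68.7% with 28 CpG. The other 766 had a median GC content of 44.0% with 3 CpG. Promoters with a GC content over 50% and an observed over expected CpG ratio over 0.6 numbered 136, and a region overlapped 33.1% of these in the hPSC list (25.3 to 41.7), 46.3% in the shLUC list (37.7 to 55.1) and 42.6% in the shHNRNPU list (34.2 to 51.4). Among the other 758 promoters the shares were 4.62%, 2.11% and 1.45%. The difference was thus present in each list, and it exceeded the counting intervals. Neighbouring promoters can share 1 region, as those of PDE4D and PDE4D-AS1 do, so these intervals are too narrow. Such CpG-rich promoters made up 15.2% of the internal promoters and 46.8% of the 33556 autosomal promoters in the table.

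The same promoters also held more sites of the enzymes used in the digestion. The 4-base cutters MspI (CCGG), HaeIII (GGCC), RsaI (GTAC) and AluI (AGCT) had a median of 7 sites in the covered promoters and 3 in the others. These sites read the same on both strands. MspI had a mean of 3.57 sites against 0.551 and HaeIII 2.64 against 1.01, whereas RsaI had 0.273 against 0.490 and AluI 1.61 against 1.61. Over all 33556 promoters, 63.1% held an MspI site, 78.9% a HaeIII site, 29.7% an RsaI site and 74.0% an AluI site. The printed PDE4D promoters differed in this way, with 10 sites in the covered and 3 in the uncovered one. The ANK3 promoter held 3. Site number and CpG content moved together with coverage, and their part in it was not tested.

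The 25 promoters covered in all lists included those of KAZN, SORCS1, SBF2, ANKS1B, ATP8A2, CTNNA2, FOXP1, KALRN, LPP, SLC4A4, CAST and DPP6. CTNNA2 links cadherins to actin in neurons, FOXP1 is a transcription factor, and DPP6 is an accessory subunit of potassium channels. For CAST and DPP6, 2 neighbouring starts each were covered. The 25 promoters had a median GC content of 72.7% with 32 CpG and 9 sites of the 4-base cutters.

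Members were shared between the hairpin lists to a large extent. A shHNRNPU region overlapped 1964 of the 2726 shLUC members, 72.0% (70.3 to 73.7), against 70.9% of all autosomal shLUC regions. In the other direction 79.1% of the shHNRNPU members (77.4 to 80.7) overlapped a shLUC region, against 77.0% of all. Members were thus shared about as often as regions at large. Of the 1964 shared shLUC members, 1964 had identical coordinates in the shHNRNPU list.

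Sharing with the hPSC list was low, and lower for members than for all regions. An hPSC region overlapped 8.99% of the shLUC members (7.94 to 10.1) and 11.0% of the shHNRNPU members (9.82 to 12.3), against 14.2% and 17.3% of all autosomal regions. Of the hPSC members, 9.93% (8.78 to 11.2) overlapped a shLUC region and 11.1% (9.85 to 12.4) a shHNRNPU region, against 14.0% and 15.6% of all. The lower value was not particular to long genes, since regions deep in genes of 200 to 500 kb gave 9.66% for shLUC with hPSC and regions outside protein-coding genes 10.3%. Only 0.796% of eligible positions lay where a region would have touched an hPSC region. Of the 247 hPSC members shared with shLUC, 115 had identical coordinates, and of the 275 shared with shHNRNPU, 147. Members without a partner were mostly far from one, since the nearest region of the other list stood at a median of 26.8 to 30.6 kb, and 7.09% to 11.3% had one within 5 kb.

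**Figure D4:**
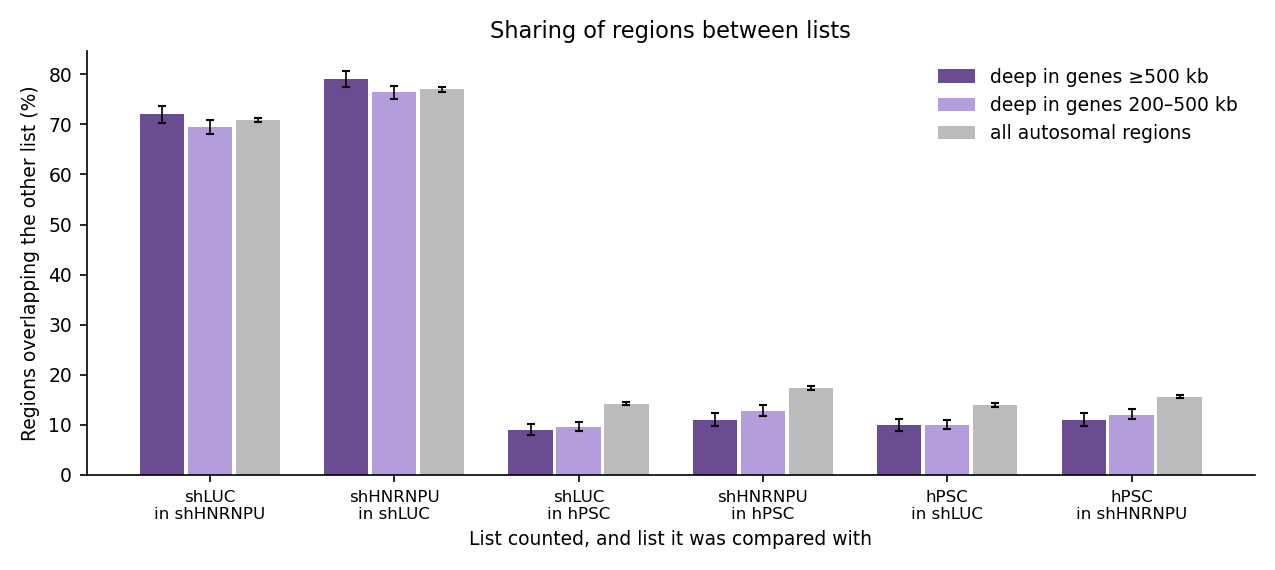
Percent of regions in one list that overlap a region of another by at least 1 bp, for regions deep in genes of 500 kb or longer, deep in genes of 200 to 500 kb, and all autosomal regions, with exact 95% binomial intervals. The pair of hairpin lists stands near 70% to 80%, and every pair with the hPSC list stands below 20%.

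Presence in all lists was rare deep in long genes. It was found for 143 hPSC members (5.75%), 141 shLUC members (5.17%) and 141 shHNRNPU members (5.67%), against 9.48%, 9.67% and 10.5% of all autosomal regions. The latter include regions near gene boundaries, which the rule leaves out. Presence in all lists was not counted for the other gene classes, so the lower share is not shown to be particular to long genes. The shLUC members of this kind lay in 106 genes or gene pairs, and 78 of these held 1. CACNA1C, CLVS1, DLGAP2, GALNT13, GPC6, PTPRN2 and RAD51B each held 3. Members present in all lists lay at an internal start more often than those in 1 list alone. Among the hPSC members that could be placed, 26 of the 130 in all lists (95% interval 13.5% to 27.9%) lay within 1 kb of an internal start, against 3.03% of those in the hPSC list alone (2.33 to 3.88). Those in the hPSC and shLUC lists had 12.6% (6.70 to 21.0), an interval that overlaps that of members in all lists. For shLUC the shares were 20.9% and 1.44%, and members found in both hairpin lists but not in the hPSC list had 2.20%.

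Near internal starts, overlapping regions of the hPSC and hairpin lists often had different coordinates, as at the 4 covered promoters printed here. Of the hPSC members that overlapped a shLUC region with other coordinates, 24.4% (17.0 to 33.1, 29 of 119) lay within 1 kb of an internal start. Of those with identical coordinates 8.49% did (3.96 to 15.5, 9 of 106), and of those without a shLUC partner 3.14%. Against shHNRNPU the shares were 20.5%, 5.97% and 3.47%. The intervals of shifted and identical pairs did not overlap for shLUC (lower bound 17.0, upper bound 15.5) and did not for shHNRNPU (13.6 and 11.4).

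The shHNRNPU list held fewer members than the shLUC list, to the degree that it held fewer regions in general. The log2 ratio of member counts was -0.13 (-0.21 to -0.055), against -0.12 (-0.14 to -0.098) over all autosomal regions. The hPSC list differed from the shLUC list by as much, with a log2 ratio of -0.13 (-0.21 to -0.053), although it held more autosomal regions (log2 ratio 0.025, 0.0043 to 0.045). Both comparisons share the shLUC list. Gene by gene, the shHNRNPU count was the lower in 159 genes, the higher in 76 and the same in 68. No difference between the control lists and the knockdown list can be set against a spread between samples.

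Changes of single genes were small in number. Of the 243 long genes with at least 10 members in shLUC and shHNRNPU together, 33 were at least 1.5-fold lower in shHNRNPU (13.6%) and 7 were at least 1.5-fold higher (2.88%). Over all protein-coding genes tested in this way the shares were 18.0% and 4.21%. With at least 20 members the order was the other way, with 8.82% of the long genes lower against 6.62% of all genes. There 102 of the 136 genes tested were the long genes themselves, and so were all 9 lower genes, so the shares are not separate. Between hPSC and shLUC, 63 of 250 long genes were lower in hPSC (25.2%) and 42 were higher (16.8%), against 27.0% and 21.1% of all genes. With at least 20 members, 22.8% of long genes and 20.3% of all genes were lower in hPSC, and 101 of those 123 genes were long genes. More long genes differed between the untreated and control hairpin lists than between the hairpin lists. Nearly all overlapping members of the hairpin lists had identical coordinates, so an effect of the hairpin cannot be told apart from the way the lists were made.

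The largest falls from shLUC to shHNRNPU were in CACNA2D3, MYT1L, TENM3, GPHN and CDH4, which were chosen for this and are given as a description. CACNA2D3, an auxiliary subunit of calcium channels, had 14 members in shLUC and 5 in shHNRNPU, a log2 ratio of -1.49 (-3.31 to 0.069), and 11 in hPSC. MYT1L, a neuronal zinc finger factor, had 17 and 9, with 9 in hPSC. TENM3, a teneurin of synaptic adhesion, had 23 and 16, with 19 in hPSC, and GPHN, which anchors inhibitory receptors, had 18 and 11, with 17 in hPSC. CDH4, a cadherin, had 21 and 15, with 8 in hPSC. SDK1 fell by as many, from 17 to 11, and came after CDH4 for its lower shLUC count. In MYT1L and CDH4 the hPSC count was thus as low as or lower than that of shHNRNPU.

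The largest rises were in WWOX, DAB1, PTPRG, TTC28 and PLXNA4. WWOX, an oxidoreductase over a common fragile site, went from 5 members to 10, a log2 ratio of 1.0 (-0.68 to 2.90), with 7 in hPSC. DAB1, the adaptor of reelin signalling, and PTPRG each went from 19 to 23. TTC28 went from 13 to 17 and PLXNA4, a semaphorin receptor, from 5 to 9. The counting interval of the log2 ratio included 0 for all 10 of these genes. It treats the counts of both lists as separate, so where regions are the same in both it cannot decide whether a gene changed. In MYT1L all 9 shHNRNPU members overlapped a shLUC region, and in WWOX all 5 shLUC members overlapped a shHNRNPU region. Single-gene intervals were taken only for genes named by rule, so other genes may also lie off 0. Among these, the interval for hPSC against shLUC did not include 0 in CDH4 (-1.39, -2.78 to -0.16) or RBFOX3 (-1.66, -3.28 to -0.28). The intervals were not adjusted for their number, and some of so many can miss 0 by counting error alone. CDH4 was also named for its fall from shLUC, so its shLUC count took part in the choice. RBFOX3, a neuronal splicing factor, had 6 members in hPSC, 19 in shLUC and 15 in shHNRNPU. The gene furthest above shLUC in the hPSC list was ASTN2, with 23, 7 and 10 members, picked out after the values were seen and given no interval.

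**Figure D5:**
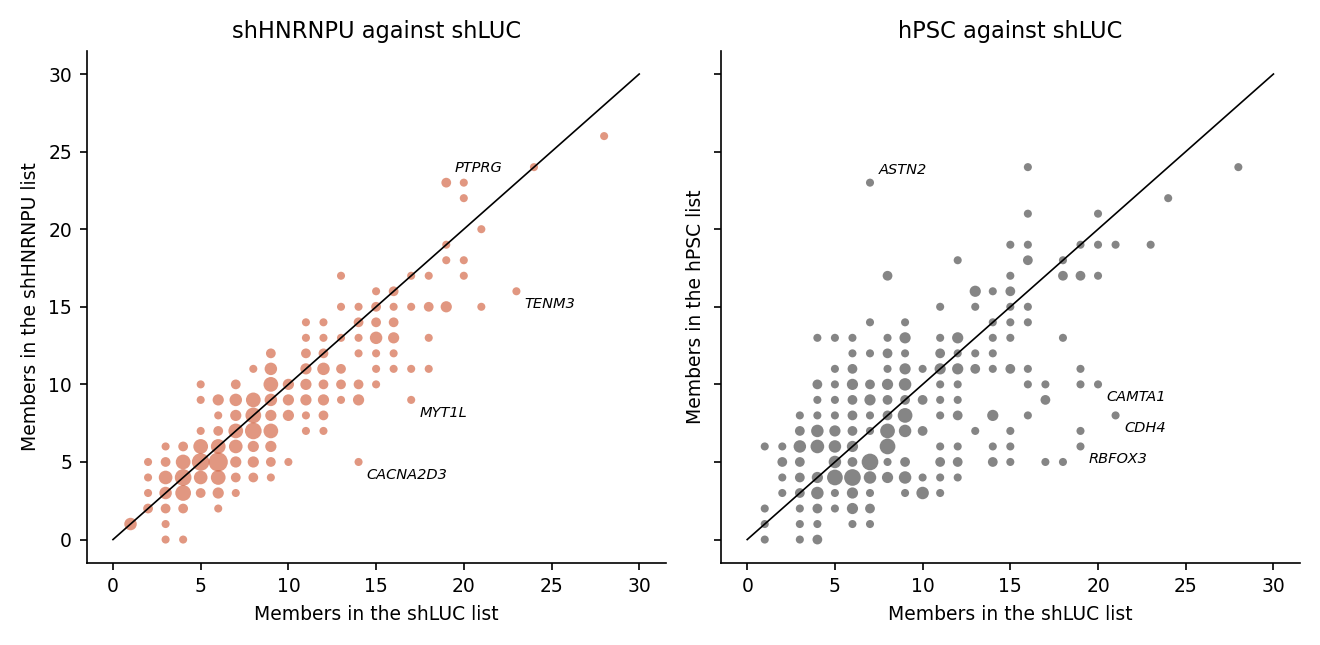
Members per gene in the shHNRNPU list (left) and the hPSC list (right) against the shLUC list, with 1 point per pair of counts, larger where more genes share it, and the line of equal counts. Points keep closer to the line on the left, where Spearman's correlation of the densities is 0.858, than on the right, where it is 0.540.

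By function, channels and transmitter receptors had the lowest ratio of shHNRNPU to shLUC. The 16 long genes of this list held 135 members in hPSC, 140 in shLUC and 105 in shHNRNPU, a log2 ratio of -0.42 (-0.79 to -0.040) against -0.13 over all long genes. Members were fewer in 13 of them, more in GRM5 and KCNMA1, and equal in RYR3. Besides CACNA2D3, the larger falls were in TRPM3, a cation channel (14 to 9), CACNA1C (19 to 15) and CHRM3, a muscarinic receptor (6 to 2). KCNIP4, a modulator of potassium channels, went from 15 to 13 with 7 in hPSC. Without CACNA2D3 the log2 ratio of the list was -0.33. Its interval overlapped that of all long genes (-0.21 to -0.056).

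The 33 genes of synaptic adhesion held 7.96 members per Mb in the hPSC list, 9.83 in shLUC and 8.83 in shHNRNPU. All 303 long genes held 9.96, 10.9 and 9.94. The 49 long genes of 1000 to 1500 kb, of any function, held 7.96, 9.64 and 8.74. For the adhesion genes the log2 ratio of hPSC to shLUC was -0.30 (-0.53 to -0.082). Their log2 ratio of shHNRNPU to shLUC was -0.16 (-0.37 to 0.062). For all long genes the log2 ratio of hPSC to shLUC was -0.13 (-0.21 to -0.054), an interval that overlaps that of the adhesion genes. For genes of 1 Mb or longer it was -0.20 (-0.35 to -0.056). The adhesion genes were not matched for length, so a difference apart from length was not tested. CTNNA2 had 7 members in hPSC, 19 in shLUC and 18 in shHNRNPU, and DSCAM, an adhesion molecule of the immunoglobulin family, had 6, 14 and 14. NTM, a neural adhesion molecule, went the other way with 18, 12 and 13. NRXN3 hardly differed, with 17, 19 and 19.

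In the other groups the interval of the log2 ratio included 0. The 5 RNA-binding genes had 45, 63 and 49 members, with a log2 ratio of shHNRNPU to shLUC of -0.36 (-0.93 to 0.20), where CELF2 had 10 and 5, RBMS3 6 and 5, and RBFOX1 24 and 24. The 18 scaffold and cytoskeleton genes had a log2 ratio of -0.14 (-0.43 to 0.15). In this group DLGAP1 and DLGAP2, which bind postsynaptic scaffolds, were among the fullest, with 19, 20 and 17 members and with 19, 21 and 20. The 19 genes of phosphatases, kinases and other signalling proteins had -0.076 (-0.36 to 0.21), with 10, 20 and 22 members in CAMTA1, a calmodulin-binding transcription activator, and 17, 18 and 13 in PRKG1, a kinase activated by cyclic GMP. The 14 genes over common fragile sites had -0.0079 (-0.31 to 0.30). They held 7.86, 8.77 and 8.72 members per Mb, fewer than the 9.96, 10.9 and 9.94 of all long genes. Genes of 1000 to 1500 kb held 7.96, 9.64 and 8.74 per Mb, and genes over 1500 kb held 7.45, 7.70 and 7.55. The fragile-site genes were not matched for length, so a lower density apart from length was not tested. AUTS2 stood out among the fragile-site genes with 21, 20 and 18 members in 1195 kb.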

How the data were processed

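MAR-seq was performed on 6 samples in 3 groups. The authors deposited 1 list of regions per group in BED form, with a chromosome, start, end and a score that was 0 in every row, so the deposited score was not used. Per the labels, digestion used MspI, HaeIII, RsaI, AluI, BamHI and PvuII, and input DNA was sonicated. The submitters' processing notes name hg38, cutadapt, Bowtie2, SAMtools, MACS2 and deepTools. How regions were called, at which threshold, and whether the samples of a group were pooled was not given in the sources used here. Names in the hPSC list carry an unexplained tag (rp1). Lists were assigned to groups by the names they carry. The labels call the molecule polyA RNA, whereas their protocol describes DNA. No methods were taken from the paper, which reports other experiments.

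Positions were set on the RefSeq gene table of GRCh38.p14. Centres lay within 1 kb of a gene boundary for 19.1%, 12.8% and 14.3% of the hPSC, shLUC and shHNRNPU regions, and for 3.62%, 3.49% and 3.44% after a shift of 200 kb. Eligible sequence was the union of long gene bodies less 1 kb on either side of every protein-coding boundary. Overlap meant at least 1 bp. Genes were compared from 10 members in both lists together, and a change meant at least 1.5-fold. Strand and internal starts came from the RefSeq promoter table. No genome sequence was used, so AT content and enzyme sites of the regions themselves were not analysed. The code was tested on simulated lists with planted density, overlap and position.

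The members and gene lists were chosen with earlier results of these data known. Named genes were the 5 longest, the 5 densest and 5 sparsest, the 5 largest falls and rises in count from shLUC to shHNRNPU, and up to 4 genes with the most members in each of 6 functional lists. Some genes that the rule names are not reported here. Genes named outside this rule were picked after their values were seen. Alternatives varied gene length, margin, merging, overlap, fold and minimum count. Scripts ran under Python 3.11.15 (pandas 2.3.3, numpy 2.4.6, scipy 1.17.1), and figures were drawn with matplotlib 3.10.9.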

Additional observations from a re-analysis of the deposited data

Results flagged for a closer look

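Chromosome X lay outside the rule, and its long genes held far fewer regions than those of autosomes. In the 11 protein-coding genes of 500 kb or longer there, with 10.6 Mb of eligible sequence, the hPSC list had 10 regions, or 0.947 per Mb (0.454 to 1.74). The shLUC list had 13 regions, or 1.23 per Mb (0.656 to 2.11), and the shHNRNPU list had 16, or 1.52 per Mb (0.866 to 2.46). These values drew attention because they are regions that no comparison above used. Genes of 200 to 500 kb on the same chromosome held 2.97, 2.97 and 3.04 per Mb. Copy number, mappability and the way the lists were made were not tested.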

How the results depend on the processing

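Of 208 recomputed values, 143 stayed within the 95% interval of the reported value (for counts of genes, within 1.5 times), and 65 did not. No value whose reported interval lay off 1 (ratios) or 0 (log2 ratios) turned in direction. The first bin over the middle, whose intervals included 1, fell below 1 with genes of 1 Mb or longer in hPSC (0.926) and shHNRNPU (0.940), and with a 10 kb margin in shHNRNPU (0.996). The lower density of long genes held under every alternative, with ratios to genes of 200 to 500 kb between 0.569 and 0.780. The ratios to genes of 200 to 300 kb, used for the limit of 300 kb, lay between 0.794 and 0.814. With genes of 300 kb or longer, density was 11.3 per Mb in hPSC, 11.9 in shLUC and 10.9 in shHNRNPU, the share of each list was 11.9%, 12.7% and 12.6%, the median gap was 45.8, 46.8 and 50.2 kb, and the ratio to genes of 200 to 300 kb was 0.814 in hPSC. With genes of 1 Mb or longer, density was 7.78, 8.96 and 8.32 per Mb, the share 1.79%, 2.09% and 2.11%, the ratio 0.569, 0.634 and 0.646, the gap 71.0, 67.3 and 71.4 kb, shLUC members with an hPSC region 7.87% and the first bin over the middle 0.796 in shLUC. There the interval of shHNRNPU against shLUC included 0 (log2 ratio -0.11, -0.25 to 0.038), and that of the last bin included 1 in both hairpin lists (1.11 and 1.11). A margin of 10 kb gave a share of 6.67% in shHNRNPU. A margin of 0 kb, which lets in the ends of genes, gave 10.4 and 10.3 per Mb in hPSC and shHNRNPU, shares of 6.58%, 7.30% and 7.25%, and sharing of 10.6% for shLUC with hPSC, 12.9% for shHNRNPU with hPSC, 11.3% for hPSC members in the shLUC list and 12.6% for those in the shHNRNPU list. In the order of these 4 pairs, an overlap of 50% of both regions gave 7.45%, 9.34%, 8.20% and 9.37%, centres within 5 kb gave 18.3%, 19.9%, 20.1% and 19.9%, and counting identical coordinates as no overlap gave 4.77%, 5.11%, 5.31% and 5.14%. Between the hairpin lists, centres within 5 kb gave 74.0% of shLUC and 80.7% of shHNRNPU members, and without identical coordinates 0.037% and 0.040% were left. Genes lower and higher in shHNRNPU than in shLUC numbered 6 and 1 at a fold of 2, and 9 and 0 with at least 20 members. The shares lower were 2.47% against 2.67% of all genes, and 8.82% against 6.62%. For hPSC against shLUC they numbered 35 and 17, and 23 and 10, with 14.0% lower against 13.7% of all genes, and 22.8% against 20.3%. All genes include the long genes, which were most of those with at least 20 members. Merging of regions, shorter genes within long genes and PTPRN2 moved nothing beyond these limits. Chosen after seeing the data, distances of 500 bp and 5 kb from an internal start gave 3.61% and 7.26% of hPSC members. At 5 kb the share was 6.44% in each hairpin list. The margin of 0 kb gave 7.55%, 6.12% and 6.17% within 1 kb. The cause of these moves was not tested, other than that each length limit takes other genes. No paired analysis was possible because the lists do not separate the samples of a group. Leaving out a sample was not possible for the same reason. Read depth is unknown, and intervals describe counts only.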
